A study of Drosophila melanogaster with 6 samples.

Results

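The neuropeptide and peptide hormone genes of Drosophila melanogaster were described in embryos that lack normal function of rib, or ribbon, which encodes a transcription factor with a BTB domain and is needed where epithelial tubes form. The set holds 41 genes, namely peptide precursors, insulin-like peptides and 2 enzymes that process precursors. They were taken by gene symbol from probe sets annotated with exactly 1 gene, with the brightest probe set of a gene where it had more than 1. Of the 41 genes, 32 had such a probe set among 11982 genes named in this way, and only Phm had a second one. The other 9 (AstA, Dsk, Tk, Pburs, Hug, Ilp1, Ilp3, Ilp4 and Ilp6) are not analysed here.

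The mutant group was 3 collections of embryos that carried 2 rib alleles over each other (rib1/ribP7), and the wild-type group was 3 collections of Oregon R embryos. Both covered stages 11 to 16, from an 8 h collection aged for a further 11 h, and were picked with an embryo sorter. Total RNA of whole embryos was hybridised to Affymetrix Drosophila Genome 2.0 arrays, 1 array per collection. The design calls the collections independent. Neither the effect of each allele nor a shared genetic background of the 2 stocks is stated in the sources used here.

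Neuropeptides are cut from larger precursors that enter the secretory pathway. In flies the precursor is cleaved by prohormone convertases such as the product of amon, its ends are trimmed, and most peptides are then amidated at the C terminus, a reaction that starts with the enzyme encoded by Phm. The peptides are stored in dense core vesicles of neurons and endocrine cells, and most act on G protein-coupled receptors. Many are made by a few identified cells each, so in RNA of a whole embryo their transcripts are a very small share of the total.

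Values are log2 expression after RMA, a method that removes background, gives all arrays the same distribution and sums the probes of a probe set. A difference is the mutant mean minus the wild-type mean on that log2 scale. It was tested with limma over all 18769 probe sets that are not controls, and a gene is called changed at a Benjamini-Hochberg adjusted p under 0.05. Array medians lay between 5.51 and 5.56. The 18 hybridization control probe sets averaged 10.13 to 10.28 on the mutant arrays and 10.38 to 10.78 on the wild-type arrays. Scaling on these controls would move the median difference of all probe sets from −0.07 to 0.31, so small differences are given relative to the deposited scaling.

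Most of the peptide genes gave dim signals. Of the 32 measured genes, 23 had a mean at or below the median of all probe sets (5.55), and 11 lay under percentile 25 of all probe sets. Phm and Nplp2, at percentiles 88.2 and 99.4, were the 2 genes above percentile 75, with ITP at 68.9 and ETH at 60.9. RMA compresses differences near background, so a difference of a dim probe set may be understated, and 1 that was not called does not show that the transcript was level.

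**Figure D1:**
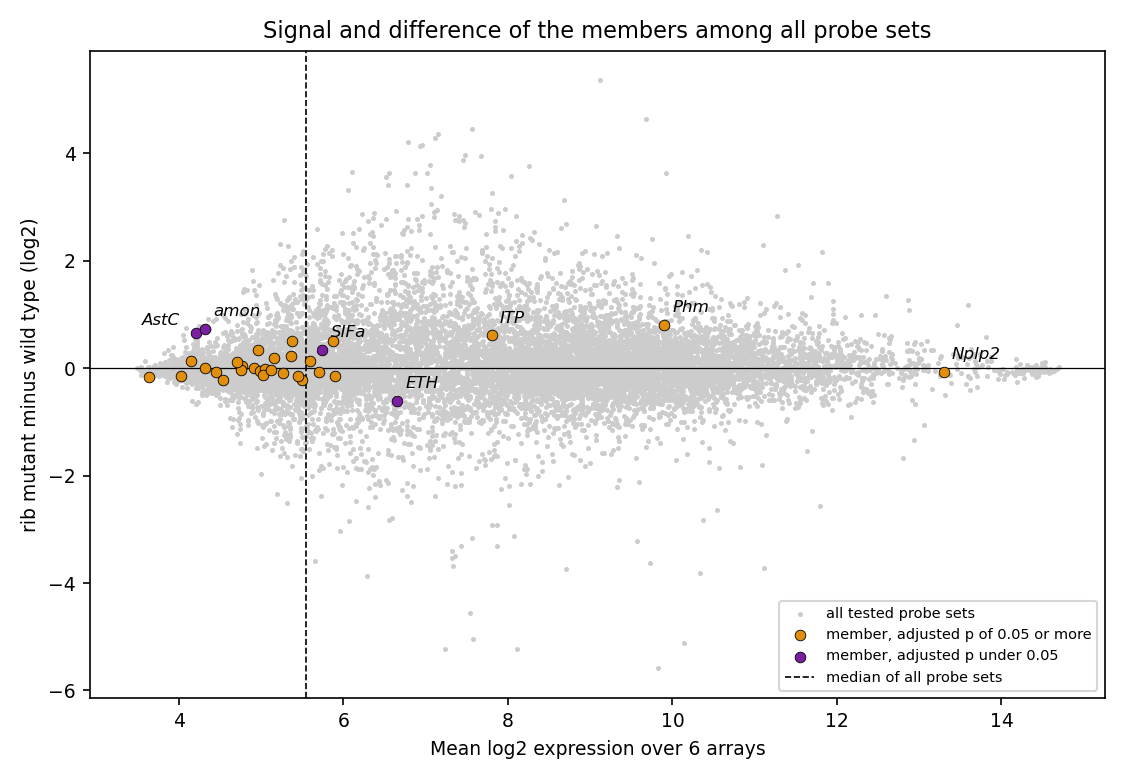
Mean log2 expression over the 6 arrays (horizontal axis) against rib mutant minus wild type on the log2 scale (vertical axis) for all 18769 probe sets (grey) and the 32 measured members (orange, or purple where the adjusted p was under 0.05). Of the members, 23 lie at or left of the dashed median of 5.55, and all lie between −0.61 and 0.81.

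Of the 32 genes, 4 passed the test, against 8.87% of all probe sets: amon, AstC and SIFa rose (5.54% of all probe sets rose) and ETH fell (3.32% of all probe sets fell). The share of 12.5% is near the share over all probe sets and rests on 4 genes. Over the brightest probe sets of all 11982 named genes, 11.3% were called. By signal, 22.2% of the 9 peptide genes above the median were called, against 14.2% of all probe sets there. Of the 23 at or below it, 8.7% were called, against 3.58% of all probe sets there. Differences ran from −0.61 for ETH to 0.81 for Phm, with a median of −0.01 against −0.07 over all probe sets. Of the 32 genes, 9 had an unadjusted p under 0.05, against 25.5% of all probe sets, and 16 had a higher mean in the mutants, against 35.9% of all probe sets. The share with a higher mean varied with signal: it was 4749 of 9384 probe sets above the median and 1995 of 9385 at or below it. Among the peptide genes it was 5 of 9 above that median and 11 of 23 at or below it. The mutant and wild-type arrays did not overlap for 11 of the 32 genes, 34.4%, against 35.3% of all probe sets. In 7 of them the mutants were higher (14.2% of all probe sets) and in 4 they were lower (21.1% of all probe sets). The series' design text names another cutoff, a 1.5-fold change with p under 0.05. Applied to limma's unadjusted p, it took 4 genes, against 13% of all probe sets. These were amon, AstC and Phm, higher, and ETH, lower, so Phm stood in place of SIFa.

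Both processing enzyme genes had a higher mean in the mutants, and amon rose. The convertase gene amon measured 4.738, 4.628 and 4.658 log2 units on the mutant arrays, against 4.003, 3.922 and 3.920 on the wild-type arrays. The groups did not overlap, and arrays within a group differed little. The means were 4.67 ± 0.06 in the mutants and 3.95 ± 0.05 in wild type (SD, n = 3 each), a difference of 0.73 (SE 0.07), 1.65-fold, with limma adjusted p = 0.00345. The call held when any single array was left out, with a limma adjusted p of at most 0.0290. The signal lay at percentile 6.79 of all probe sets in both groups together, so its size is uncertain although its direction was the same on every array.

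Phm, which encodes the first enzyme of peptide amidation, was bright on every array. It measured 10.41, 10.26 and 10.24 log2 units in the mutants, against 9.98, 9.34 and 9.16 in wild type. The groups did not overlap, and wild-type replicate 1 lay closest to the mutants. The difference was 0.81 (SE 0.22), 1.75-fold, and missed the threshold at limma adjusted p = 0.0751. Blocking on the replicate number gave a limma adjusted p of 0.0321, and leaving out wild-type replicate 1 gave 0.00251. The second probe set of Phm measured 8.27 ± 0.15 in the mutants and 7.91 ± 0.32 in wild type (SD, n = 3 each), a difference of 0.36 (SE 0.18, limma adjusted p = 0.262).

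**Figure D2:**
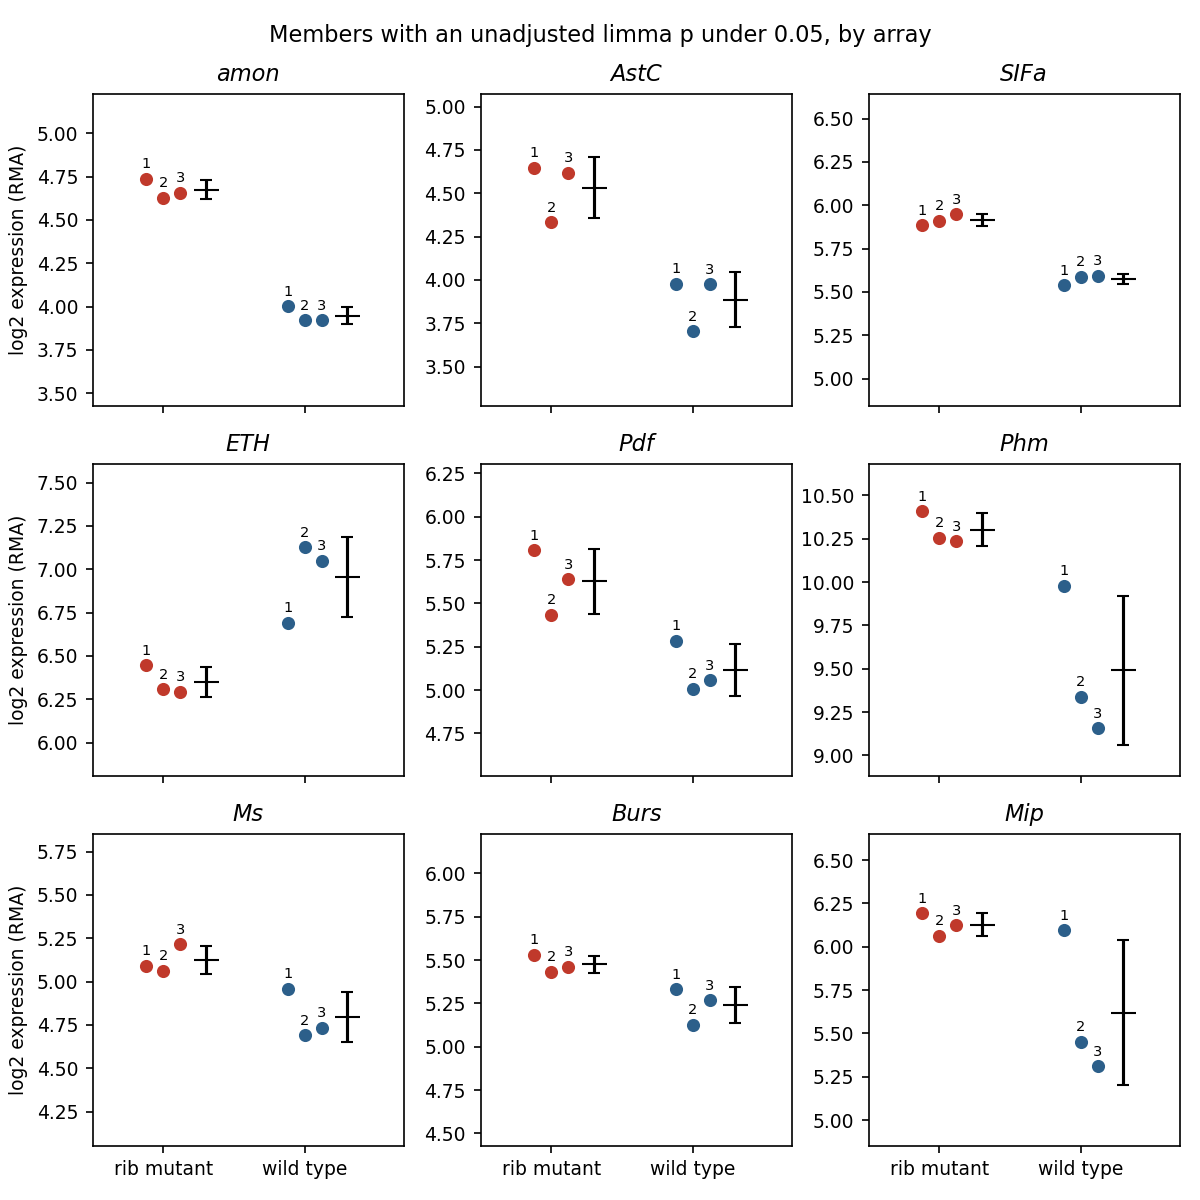
Log2 expression on each array (numbered points) for the 9 members with an unadjusted limma p under 0.05, rib mutant in red and wild type in blue, with the mean and SD of each group in black (n = 3). Each panel spans the same 1.8 log2 units. ETH is the 1 gene of the 9 that is lower in the mutants, and Mip is the 1 whose groups overlap.

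Among the ecdysis peptides, which run the sequence of behaviours that sheds the old cuticle, ETH fell. ETH encodes ecdysis triggering hormone, which is made by the Inka cells that sit on the trachea. It measured 6.45, 6.31 and 6.29 log2 units in the mutants, against 6.69, 7.13 and 7.05 in wild type. Every mutant array lay below every wild-type array, with wild-type replicate 1 nearest to the mutants. The means were 6.35 ± 0.09 in the mutants and 6.96 ± 0.23 in wild type (SD, n = 3 each), a difference of −0.61 (SE 0.13), 1.52-fold lower, with limma adjusted p = 0.0438.

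The call of ETH was close to the threshold. It was lost on blocking by replicate (limma adjusted p = 0.0550), under median centring (0.0549), and when any array other than wild-type replicate 1 was left out (up to 0.167). Scaled on hybridization controls, the difference was −0.23 (limma adjusted p = 0.186). Of 8 measured tracheal markers, 4 had a higher and 4 a lower mean in the mutants, and 1, pio, rose by the brightest of its 3 probe sets. Their summed log2 level was 63.51 to 65.02 on the mutant arrays and 56.99 to 75.72 on the wild-type arrays. None of these markers is specific to Inka cells, and their part in the result was not tested.

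The other ecdysis genes were dimmer. Burs, a subunit of the hormone bursicon that hardens new cuticle, measured 5.53, 5.43 and 5.46 in the mutants, against 5.33, 5.13 and 5.27 in wild type. The groups did not overlap, but the difference of 0.23 (SE 0.08) was not called (limma adjusted p = 0.154). CCAP, which encodes crustacean cardioactive peptide, differed by 0.18 (limma adjusted p = 0.321), and its groups overlapped, since wild-type replicate 3 at 5.27 lay just above the mutants at 5.24 to 5.26 and the other wild-type arrays lay below them. Eh, the gene of eclosion hormone, differed by −0.06 with a 95% interval from −0.29 to 0.16.

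The allatostatin and myotropic genes, whose products mostly inhibit or contract visceral muscle, had 1 call among 6 measured. AstC encodes allatostatin C, a peptide with inhibitory actions. It measured 4.65, 4.33 and 4.62 log2 units in the mutants, against 3.98, 3.70 and 3.98 in wild type. The groups did not overlap, and replicate 2 was the lowest array in each. The means were 4.53 ± 0.17 in the mutants and 3.89 ± 0.16 in wild type (SD, n = 3 each), a difference of 0.65 (SE 0.13), 1.57-fold, with limma adjusted p = 0.0320. The signal lay at percentile 4.30 of all probe sets, lower than that of amon, so the size of this difference is uncertain too. Leaving out wild-type replicate 2 gave a limma adjusted p of 0.0888, and leaving out any 1 mutant array gave 0.0521 to 0.132.

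Mip and Ms were also higher on the mean without being called. Mip, which encodes myoinhibiting peptides, measured 6.19, 6.06 and 6.12 in the mutants, against 6.10, 5.45 and 5.31 in wild type. Wild-type replicate 1 lay among the mutant arrays, and the other wild-type arrays lay below them. The difference was 0.51 (SE 0.21, limma adjusted p = 0.194), and without wild-type replicate 1 it was 0.75 (limma adjusted p = 0.00497). Ms, the gene of myosuppressin, measured 5.09, 5.06 and 5.22 in the mutants, against 4.96, 4.69 and 4.73 in wild type. Its groups did not overlap, with a difference of 0.33 (SE 0.10, limma adjusted p = 0.105; 0.0275 without wild-type replicate 1). FMRFa, AstCC and Proc, the last of which encodes proctolin, differed by 0.04, −0.07 and −0.08, and their groups overlapped.

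In the group of peptides best known from behaviour and the circadian clock, SIFa rose. SIFa encodes SIFamide, made by a few neurons of the brain. It measured 5.89, 5.91 and 5.95 log2 units in the mutants, against 5.54, 5.59 and 5.59 in wild type. The groups were tight and did not overlap. The means were 5.91 ± 0.03 in the mutants and 5.57 ± 0.03 in wild type (SD, n = 3 each), so the rise of 0.34 (SE 0.07), 1.27-fold, was small although it was called (limma adjusted p = 0.0343). The call was lost in the blocked fit (limma adjusted p = 0.0527) and when wild-type replicate 2 or any mutant array was left out (0.0989 to 0.156), while the difference stayed between 0.32 and 0.36.

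Pdf, which encodes pigment-dispersing factor, the output peptide of clock neurons, measured 5.81, 5.43 and 5.64 in the mutants, against 5.28, 5.01 and 5.06 in wild type. The groups did not overlap. The difference of 0.51 (SE 0.13), 1.43-fold, missed the threshold (limma adjusted p = 0.0648) and passed with the replicate block (limma adjusted p = 0.0251). The feeding peptide genes NPF and sNPF and the memory gene amn went the other way on the mean, by −0.03, −0.16 and −0.14. For sNPF and amn the mutant arrays lay below all wild-type arrays, at signals in the lowest 2% of all probe sets, and neither was called (limma adjusted p = 0.224 and 0.305).

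**Figure D3:**
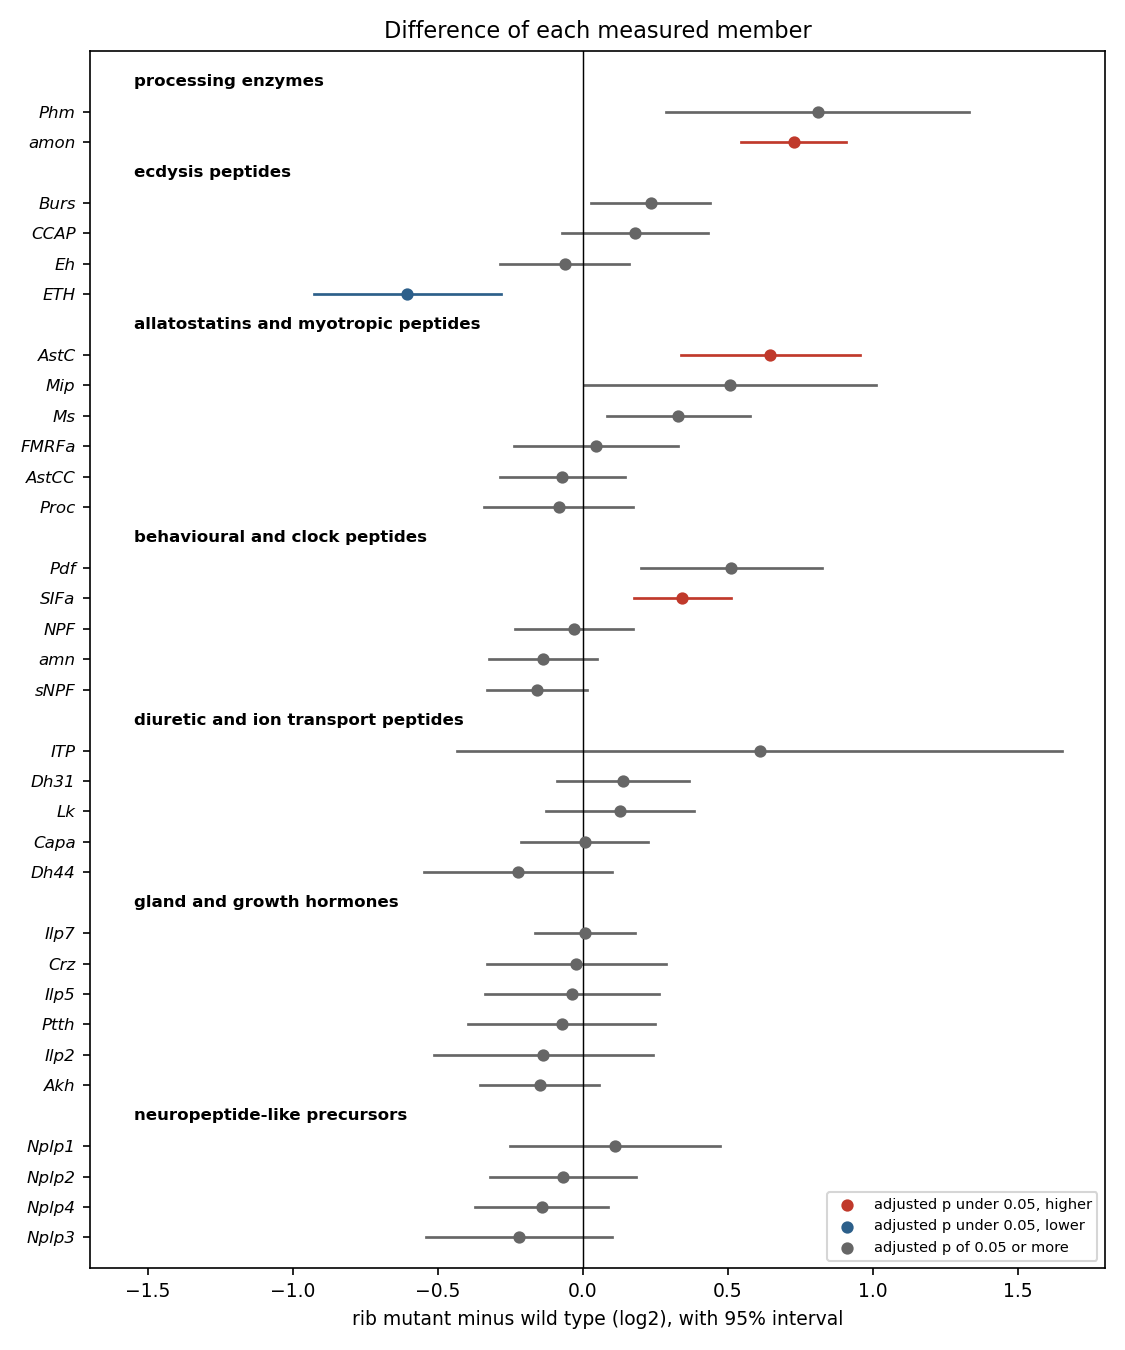
Difference of each of the 32 measured members, rib mutant minus wild type on the log2 scale, with limma's 95% interval, grouped by role and sorted within a role. Red and blue mark the members called higher and lower, and grey the others. Of the 28 members that were not called, 24 have an interval within 1.5-fold (0.585 log2 units) of 0.

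None of the 5 diuretic and ion transport genes was called by limma, and none had an unadjusted p under 0.05. ITP, the gene of ion transport peptide, was the 1 with a signal well above the array median. It measured 8.10, 8.28 and 7.94 in the mutants, against 7.81, 8.19 and 6.49 in wild type. Wild-type replicate 3 stood far below the other 5 arrays, and the difference of 0.61 (SE 0.43) had a 95% interval from −0.43 to 1.65. Without that array the difference was 0.10. The diuretic hormone genes Dh31 and Dh44 differed by 0.14 and −0.23, the leucokinin gene Lk by 0.13 and Capa by 0.01, each with overlapping groups.

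The gland and growth hormones gave no call by limma. The 6 measured genes differed by −0.15 to 0.01, and none had an unadjusted p under 0.05. Akh, which encodes the adipokinetic hormone of the corpora cardiaca, measured 5.38, 5.39 and 5.35 in the mutants, against 5.42, 5.51 and 5.64 in wild type. Its mutant arrays lay below all wild-type arrays by a small margin, and the difference of −0.15 was not called (limma adjusted p = 0.316). Ptth, whose product drives ecdysone synthesis in the prothoracic gland, differed by −0.07 (95% interval −0.40 to 0.25). Crz, the corazonin gene, differed by −0.02, and the insulin-like genes Ilp2, Ilp5 and Ilp7 by −0.14, −0.04 and 0.01.

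In 5 of these 6 hormone genes, wild-type replicate 3 was the highest of the wild-type arrays. Ilp2, for example, measured 4.89 to 5.03 on the mutant arrays, against 5.43 on that array and 4.91 and 4.93 on the other wild-type arrays. The same array was the highest of the wild-type arrays for 69.6% of all probe sets at or below the median and for 38.7% of those above it. The median deviation of the dim probe sets from their own means was −0.05 to −0.04 on the mutant arrays, against 0.13 on wild-type replicate 3 and −0.03 and 0.02 on the other wild-type arrays. The part of this shift in the small negative differences was not tested. Without wild-type replicate 3 the number of the 32 peptide genes with a higher mean in the mutants was 20 in place of 16.

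The neuropeptide-like precursor genes, a group defined from peptides found in fly tissue, had no call by limma among 4, and none had an unadjusted p under 0.05. Nplp2 gave one of the brightest signals of the set, at 13.26, 13.21 and 13.32 in the mutants and 13.50, 13.31 and 13.17 in wild type. The groups overlapped, and the difference of −0.07 had a 95% interval from −0.32 to 0.18. Signals near the top of the scale can saturate, which limits what a probe set can show. Nplp1, Nplp3 and Nplp4 differed by 0.11, −0.22 and −0.14, with overlapping groups.

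Taking the 23 genes with an unadjusted limma p of 0.05 or more, the 95% interval lay within 1.5-fold of 0 in 22, the exception being ITP. These intervals hold for the RMA values and do not correct for compression near background. Wild type was also the more variable group for 22 of all 32 genes (68.8%, against 80.8% of all probe sets), with the widest spread for ITP, Phm and Mip (SD 0.17, 0.10 and 0.07 in the mutants, against 0.90, 0.43 and 0.42 in wild type).

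**Figure D4:**
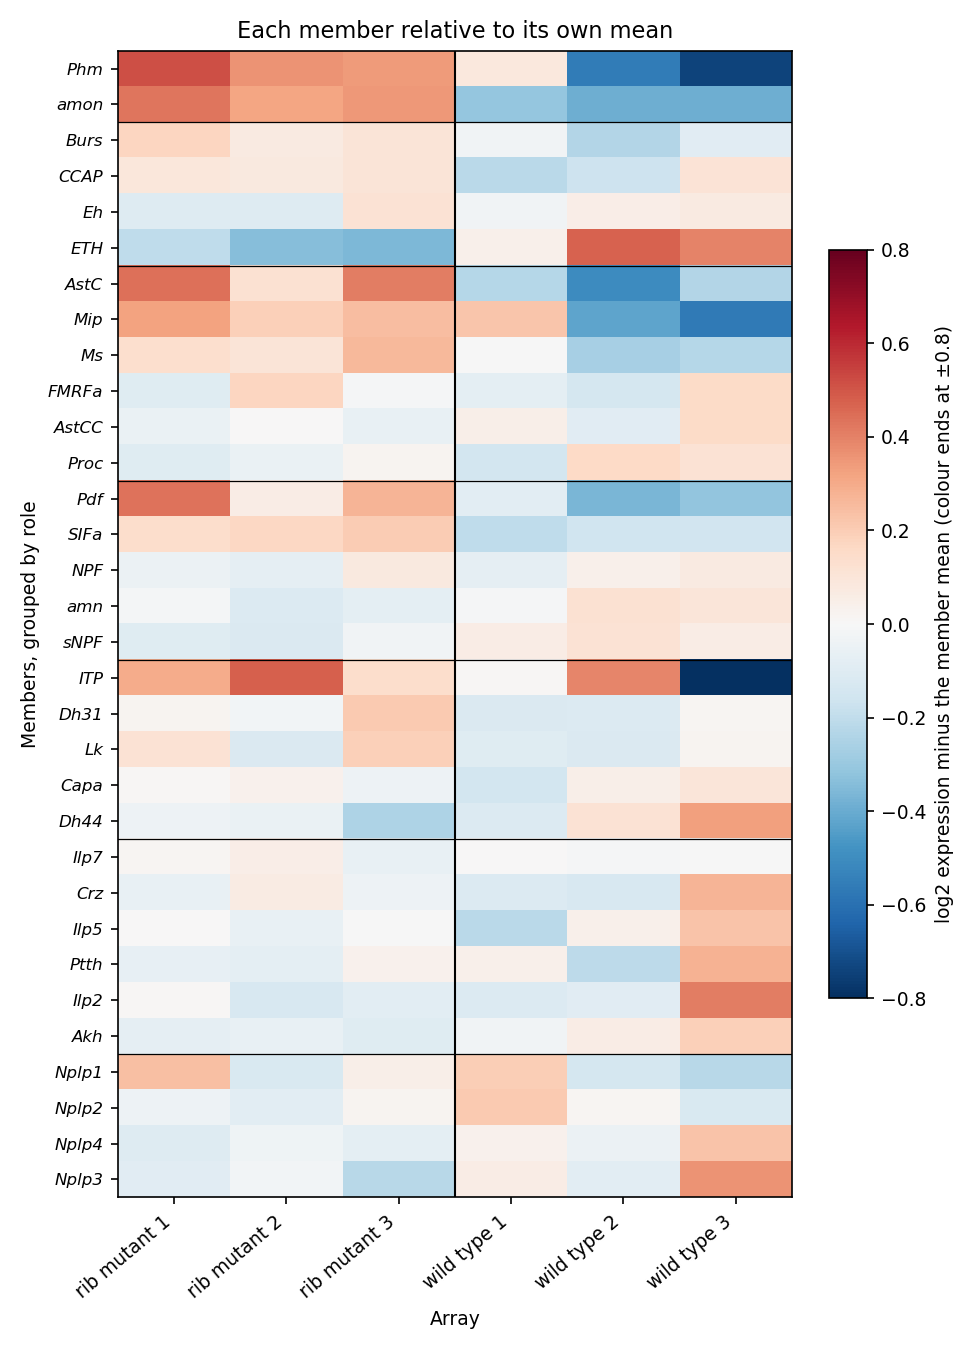
Log2 expression of each measured member on each array minus that member's mean over the 6 arrays, with the members grouped by role. The rows of Phm and amon are red on all mutant arrays, ETH is blue on them, and wild-type replicate 3 is the reddest wild-type array in most rows of the gland and growth hormones.

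Receptors for these peptides, with some such as TrissinR whose ligand is outside this gene set, were read from the same test. Of 39 listed receptor genes 24 were measured, of which 19 gave signals at or below the median of all probe sets. Dh44-R2, a receptor of the diuretic hormone encoded by Dh44, rose, and none fell, so 4.17% were called against 8.87% of all probe sets. The share called was 3.58% of probe sets at or below the median signal and 14.2% of those above it. Dh44-R2 measured 4.91, 5.01 and 4.98 in the mutants, against 4.48, 4.56 and 4.62 in wild type, a difference of 0.41 (SE 0.08, limma adjusted p = 0.0266). The groups did not overlap, and the second probe set of Dh44-R2 differed by 0.66 (limma adjusted p = 0.00417). The call of the first was lost when wild-type replicate 2 or any mutant array was left out, with a limma adjusted p of up to 0.130. Dh31-R, a receptor gene for Dh31, was named after its values were seen. Its dimmer probe set differed by 0.64 (limma adjusted p = 0.0273) and its brightest by 0.04 (limma adjusted p = 0.795). The median over the receptors was −0.07, equal to that of all probe sets to the second decimal.

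Ligand and receptor genes can be set side by side, although these receptors were chosen after their values were seen. Akh differed by −0.15 and its receptor gene AkhR by −0.63 (SE 0.16). AkhR measured 3.94, 3.87 and 3.93 in the mutants, against 4.90, 4.38 and 4.36 in wild type. Its groups did not overlap, but it was not called (limma adjusted p = 0.0624). Blocking on replicate gave a limma adjusted p of 0.0413. Its second probe set differed by −0.16 (limma adjusted p = 0.266). The bursicon receptor gene rk differed by 0.30 (SE 0.09, limma adjusted p = 0.0868) beside 0.23 for Burs. Pdfr, the receptor gene for Pdf, differed by −0.14 and SIFaR by −0.07, while Pdf and SIFa differed by 0.51 and 0.34. The brightest receptor genes were InR, the insulin receptor gene, at 0.41 (SE 0.48), and tor, which encodes the receptor of the Ptth product, at −0.39 (SE 0.64). For tor, replicate 1 was low in both groups, at 6.87 in the mutants and 6.89 in wild type, against 8.24 and 8.25 in the other mutants and 8.81 and 8.84 in the other wild-type arrays.

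Genes of precursor processing, dense core vesicles and peptide breakdown gave 2 rises and no fall among 22 measured of 24. That is 9.09%, near the 8.87% called over all probe sets. Of the 22, 14 lay above the median signal, where 14.2% of all probe sets were called. 7B2 encodes a helper protein of the convertase made by amon. It measured 6.55, 6.45 and 6.68 in the mutants, against 5.77, 5.50 and 5.28 in wild type, a rise of 1.04 (SE 0.14), 2.06-fold, with limma adjusted p = 0.00974. Cadps encodes a protein that primes dense core vesicles for release. It measured 8.92, 9.30 and 8.78 in the mutants, against 7.98, 7.59 and 6.70 in wild type, a rise of 1.57 (SE 0.34), 2.98-fold, with limma adjusted p = 0.0411. Neither overlapped between the groups, and both were higher in all mutant arrays by a margin larger than the spread among the mutant arrays. The wild-type arrays spread more widely, with SDs of 0.25 for 7B2 and 0.66 for Cadps, against 0.12 and 0.27 in the mutants. The median over this list was 0.02, and with the replicate block 4 of its genes rose. For 7B2 the limma adjusted p reached 0.0536 and for Cadps 0.158 when 1 array was left out.

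The 2 probe sets of Cadps went the same way, the second by 0.73 (limma adjusted p = 0.0508), but the 3 of IA-2, a dense core vesicle membrane protein gene, did not. The brightest probe set of IA-2 differed by −0.25 (limma adjusted p = 0.223) and the dimmer ones by 1.45 (SE 0.14, limma adjusted p = 0.00254) and 0.03. The second amidation enzyme gene Pal2 differed by 0.31 (limma adjusted p = 0.0853) and Pal1 by −0.27 (limma adjusted p = 0.234). IA-2, Pal1 and Pal2 were named after their values were seen.

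Regulators of peptidergic cell identity were mostly brighter than the peptide genes. Of 14 measured, wit rose and none fell (7.14% called, against 8.87% of all probe sets), with a list median of 0.20. Of the 14, 12 lay above the median signal, where 14.2% of all probe sets were called. wit encodes a BMP receptor that FMRFa expression needs in fly neurons. It measured 8.04, 8.13 and 7.89 in the mutants, against 6.14, 5.55 and 4.67 in wild type. The groups were far apart, with a rise of 2.56 (SE 0.36), 5.92-fold, and limma adjusted p = 0.0101. The call was lost when mutant replicate 1 or 2 was left out, with a limma adjusted p of up to 0.0561. FMRFa itself differed by 0.04 (95% interval −0.24 to 0.33). With the replicate block 5 regulators passed limma's test, 4 higher and 1 lower. The 3 largest differences after wit were in cas (1.67), dac (1.60) and sqz (1.54), transcription factor genes of the nerve cord, at limma adjusted p = 0.0767, 0.0737 and 0.0952 without the block and 0.0248, 0.0228 and 0.0379 with it. dimm, which encodes the factor that directs cells to a peptidergic state, differed by 0.02 (SE 0.09) at a dim signal.

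Pan-neuronal and transmitter genes were set beside the peptide genes. Of 16 measured neuron markers 13 had a higher mean in the mutants (35.9% of all probe sets did) and 8 rose (5.54% of all probe sets did), with a median of 1.37 against −0.01 over the peptide genes. These were nSyb, cac, ChAT, VAChT, Gad1, Rab3, Syn and Vmat. Gad1 and Vmat held the call when any single array was left out, and the other 6 lost it in at least 1 case, with a limma adjusted p of up to 0.161. The second probe set of cac differed by −0.17 (limma adjusted p = 0.241), against 1.29 for the brightest. The dimmer probe sets of Vmat differed by 1.14, 1.03 and −0.06 (limma adjusted p = 0.0156, 0.0493 and 0.677). By the brightest probe set, the markers with a lower mean in the mutants were para (−0.18), VGlut (−0.15) and futsch (−0.04). The dimmer probe sets differed by 0.05 for VGlut and by 0.49 and −0.25 for futsch, none called. For brp they differed by 0.15, −0.11 and −0.10, against 0.34 for the brightest. The second probe set of cpx differed by 0.86 (limma adjusted p = 0.0251), against 2.23 for the brightest (limma adjusted p = 0.0561). With the replicate block 11 of the 16 markers were called by their brightest probe sets, the same 8 with elav, fne and cpx. Their summed log2 level was 111.7 to 116.6 on the mutant arrays and 85.1 to 99.4 on the wild-type arrays, which do not overlap. Sums over the 32 peptide genes were 177.2 to 178.7 in the mutants and 173.9 to 175.8 in wild type. The part of a shift in neuronal RNA in the rises of amon, AstC and SIFa was not tested, and in whole embryos more cells of a type and more RNA per cell cannot be told apart. The difference between the lists was not tested either. Higher means were not particular to the neuron markers. All 10 muscle markers and 8 of 9 glial markers had them too, with medians of 1.15 and 0.655. Of the neuron markers 10 of 16 lay above the median signal of all probe sets, and of the peptide genes 9 of 32. The shares over all probe sets varied with signal. Above that median, 4749 of 9384 probe sets had a higher mean in the mutants and 826 rose. At or below it, 1995 of 9385 had a higher mean and 214 rose.

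**Figure D5:**
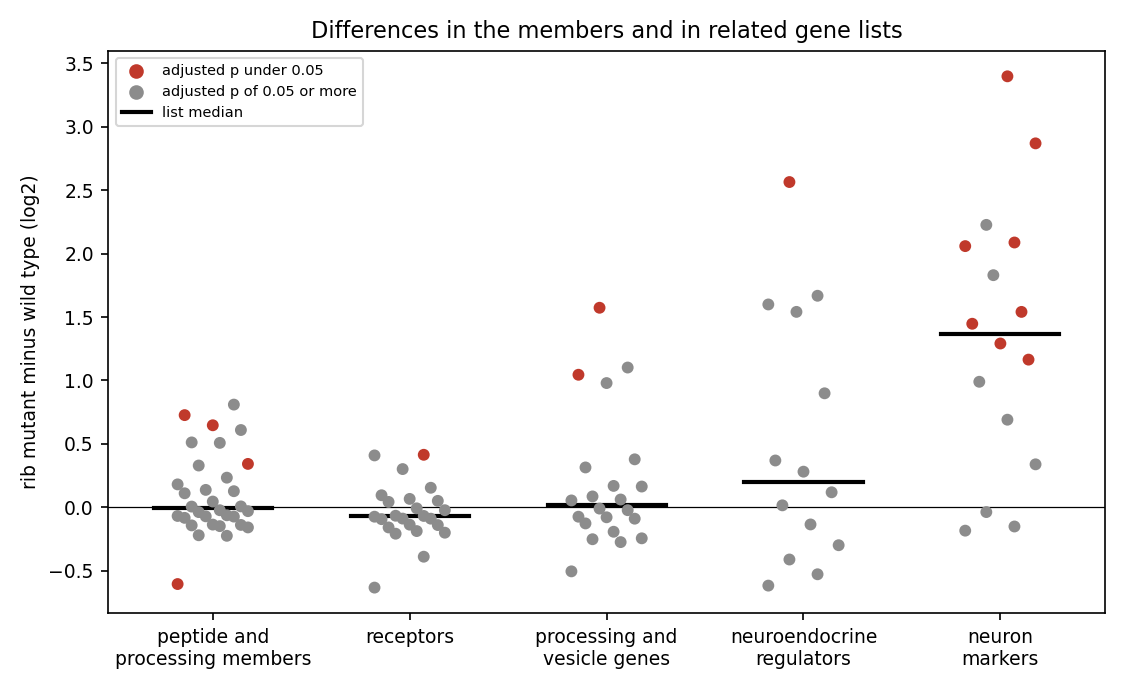
Rib mutant minus wild type (log2) for each measured gene of 5 lists, with the list median as a bar and genes with an adjusted p under 0.05 in red. The neuron markers have a median of 1.37, the regulators 0.20, and the other 3 lists lie between −0.07 and 0.02.

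Markers of other tissues varied most among the wild-type arrays. Mean log2 levels over 10 muscle genes were 8.97, 8.98 and 8.88 in the mutants and 8.97, 7.39 and 6.51 in wild type. Means over 9 glial genes were 8.93, 8.85 and 8.77 in the mutants and 8.92, 8.65 and 8.00 in wild type, and those over 10 midgut genes were 7.04, 7.01 and 6.99 in the mutants and 6.92, 6.79 and 6.88 in wild type. All 10 muscle genes and 8 of the 9 glial genes had a higher mean in the mutants, against 35.9% of all probe sets. Of the midgut genes 3 had a higher and 7 a lower mean. For wild-type replicate 1 the means over a list hide genes that went opposite ways. On wild-type replicate 1, 6 of the 10 muscle genes lay above the range of the mutants, 3 below it and 1 within it, and of the 9 glial genes 4 lay above, 3 below and 2 within. Called genes are named here after their values were seen. Of the 10 muscle genes 2 rose (20%): Act87E by 1.92 and Zasp66, by the brightest of its 3 probe sets, by 3.62 (limma adjusted p = 0.00164 and 0.00391). None of the glial genes was called. Of the 10 midgut genes 3 were called (30%), all members of a family of related proteases. Jon44E fell by 5.04, and Jon65Aiv and Jon65Aiii rose by 3.77 and 2.88 on the log2 scale (limma adjusted p = 6.35e-05, 6.35e-05 and 0.000114). The muscle and midgut calls held when any single array was left out. Over all probe sets 8.87% were called, and 14.2% of those above the median signal. Among the 9 peptide genes with an unadjusted limma p under 0.05, wild-type replicate 1 was the wild-type array nearest to the mutants for all but SIFa. These were amon, AstC, Phm, ETH, Mip, Pdf, Ms and Burs. For AstC it was about level with wild-type replicate 3, both at 3.98. The part of these shifts in the peptide results was not tested. Without that array 8 of the 32 peptide genes were called, 7 higher and 1 lower, while 3674 probe sets were called in all.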

How the data were processed

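The authors deposited log2 values for each probe set, and the submitters' processing notes name RMA and Partek without a version. Of the probe sets, 183 controls were left out, which left 18769. The platform annotation gave 1 symbol to 13647, several to 402 and none to 4720. All 32 member symbols matched RefSeq's by gene identifier. Groups and replicate numbers came from the sample titles.

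Mutant minus wild-type differences were fitted and tested two-sided with limma's lmFit and eBayes (limma 3.58.1, R 4.3.3). The p-values were adjusted over all probe sets by Benjamini-Hochberg at a threshold of 0.05. The pipeline was tested on simulated data. Those arrays varied independently and equally in both groups, unlike the deposited ones, so the test does not cover calls under shared or unequal variation. SEs and 95% intervals are limma's moderated ones. An exact permutation test was not used, since its smallest two-sided p at this size is 0.1. With 3 arrays per group, their number limits the precision.

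The members and gene lists were chosen with earlier results of these data known. The lists covered receptors, processing and vesicle genes, regulators, and markers of neurons, glia, muscle, midgut and trachea. Every measured member is named. Of the first 3 lists, called genes are named, up to 4 each way, and others were named after their values were seen.

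Over all probe sets, the deviations of arrays with the same number had correlations of 0.37, 0.57 and 0.39, and all other pairs between the groups at −0.33 to −0.14. By the positive values, same-numbered arrays varied together, although what a number shares is not stated in the labels. Deviations from a group mean cancel within the group. The negative values therefore follow on balance from the positive ones and are no separate evidence. The reported calls come from the fit without the replicate number, and blocked values appear beside results whose call or count they alter. Alternatives were this replicate block, other scalings, priors, array weights, a filter on dim probe sets, other probe set choices, and each array left out.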

Additional observations from a re-analysis of the deposited data

How the results depend on the processing

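The number of array pairs, signals near background and the uneven wild-type arrays limit these results. Of the 4 calls, amon kept its side of the threshold in every alternative that tested it; filtered out with the dimmest 40% of probe sets, it and AstC could not be tested there. AstC, SIFa and ETH each lost the call in some. The 4 calls among the 32 genes became 10 with array weights (9 higher, 1 lower), 10 scaled on hybridization controls (all higher), 2 by a plain test without moderated variance, and 1 of 15 after the dimmest 40% were left out. In an alternative chosen after seeing the data, 2 of the 9 genes at or above the median of all probe sets were called. With the replicate block it was 4, of which AstC and amon were shared with the fit without it, and SIFa and ETH gave way to Pdf and Phm. Leaving out each array gave 1 to 8. For receptors (1 call) the count was 3 with array weights and with a trended and robust prior, 2 with the replicate block, with the mean of a gene's probe sets and with any probe set, 5 on hybridization controls, and 0 under limma after the dim filter, where 8 were left to test. In the unfiltered fit 4 receptors had an unadjusted p under 0.05. Leaving out arrays gave 0 to 3. For processing and vesicle genes (2 calls) it was 8 with array weights, 4 with the replicate block and by the submitters' rule of 1.5-fold at an unadjusted p under 0.05, 5 on hybridization controls and 0 by the plain test. By limma 7 had an unadjusted p under 0.05, and leaving out arrays gave 0 to 7. For regulators (1 call) it was 9 with array weights, 5 with the replicate block and by the submitters' rule, 3 on hybridization controls, 2 with the trended prior and 0 by the plain test. By limma 6 had an unadjusted p under 0.05, and leaving out arrays gave 0 to 6. Over all probe sets 1664 calls became 4371 with array weights, 2745 with the replicate block, 3202 on hybridization controls, 594 by the plain test, and 603 to 3674 with arrays left out. All other alternatives for these counts lay within 1.5 times, but a like count did not always hold the same genes. The submitters' rule took Phm in place of SIFa among the peptide genes. Among receptors it took AkhR, lower, in place of Dh44-R2, higher. With the trended and robust prior Pdf was called, and SIFa and ETH were not.

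Small differences changed sign in some settings. Scaled on hybridization controls, every peptide gene but ETH was higher on the mean: AstCC 0.31, Dh44 0.15, Eh 0.32, NPF 0.35, sNPF 0.22, Nplp2 0.31, Nplp3 0.16, Nplp4 0.24, Proc 0.30, Crz 0.36, Akh 0.23, amn 0.24, Ilp2 0.24, Ilp5 0.34 and Ptth 0.31. With cyclic loess the genes that turned were AstCC (0.011), Eh (0.018), NPF (0.052), Crz (0.056) and Ilp5 (0.041). With array weights they were AstCC (0.016), Capa (−0.033), Crz (0.071) and Ptth (0.11). With each array left out, ranges that crossed 0 were −0.067 to 0.054 for Capa, −0.030 to 0.13 for FMRFa, −0.15 to 0.018 for Nplp2, −0.092 to 0.11 for Crz, −0.23 to 0.033 for Ilp2, −0.15 to 0.067 for Ilp5, −0.018 to 0.038 for Ilp7 and −0.20 to 0.046 for Ptth. None of these turned genes was called in the unchanged fit, and the cause was not tested.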
